A study of Mus musculus with 12 samples.

Results

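The 33 genes described here mark or maintain haematopoietic stem cells: surface proteins, transcription factors, chromatin and RNA regulators, and a few genes of other function. They were taken by gene symbol from the array, with the brightest probe standing for each gene, and are 33 of 33233 genes tested. All 33 were measured, 32 of them well above background on all 12 arrays. Tcf15 was well above background on 10 arrays.

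Haematopoietic stem cells sit in the bone marrow and renew all blood lineages. They are kept in place by the chemokine CXCL12 acting on its receptor CXCR4 and by contact with niche cells. Granulocyte colony-stimulating factor (G-CSF) and antagonists of CXCR4 both move stem cells from marrow to blood. The state of the stem cell rests on a dense circuit of transcription factors that bind the same enhancers, and loss of several of these factors empties the stem cell pool.

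The cells came from the marrow of male mice in 4 groups of 3, and their strain, age and genotype are not stated in the labels. Sham-operated mice were the controls. POL5551, a CXCR4 antagonist, was given at 100 mg/kg per day for 2 weeks. The mice of the 2-day G-CSF group received 4 injections of 100 ug/kg, spaced 12 h apart, and those of the 5-day group received 9. In every group the marrow was enriched for Kit-bearing cells and then sorted for lineage-negative, Sca-1-positive, Kit-positive cells in a SLAM gate. The sham operation is the only control, so injections of G-CSF have no vehicle control among the 12 arrays.

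Each mouse gave 1 single-colour array. Levels are log2 signal relative to the 75th percentile of the same array, and levels of different genes are not compared because probes differ in brightness. Kit was well above background on all 12 arrays, from 2.61 to 3.22, and Slamf1, the SLAM marker CD150, on 11. Slamf1 was at -4.12 on sham 1 and at -0.96 and -1.41 on the other shams. Of 8 endothelial markers 5 were well above background on all 12 arrays, while Cdh5 was so on 3. On all 12 arrays 5 of 7 macrophage, 4 of 6 B lymphoid, 6 of 8 granule and 4 of 5 T and NK markers were also well above background. Of 5 megakaryocyte and platelet markers 3 were so on all 12, and Ppbp alone on none. The summed linear signal of these 5, in multiples of the 75th percentile, ran from 2.27 to 9.32 in sham and 8.91 to 10.77 after POL5551. It ran from 3.86 to 5.10 after 2 days and 7.39 to 9.23 after 5 days of G-CSF. Endothelial cells share Esam, Robo4, Eng and Cd34 with stem cells. The summed linear signal of 8 endothelial markers, in multiples of the 75th percentile, ran from 1.99 to 2.95 in sham and 1.98 to 2.23 after POL5551. It ran from 2.52 to 3.07 after 2 days and 1.54 to 1.93 after 5 days of G-CSF. That of 7 macrophage markers ran from 17.1 to 32.2, 15.6 to 20.5, 20.3 to 25.2 and 14.7 to 24.6 in the same order. That of 6 B lymphoid markers ran from 12.8 to 15.4, 10.4 to 16.7, 16.8 to 19.2 and 10.6 to 16.9. The part of these cells in the results was not tested.

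Array 1 of the sham group stood apart, and it bears on every comparison with sham. Through the shared estimate of the spread it also bears on the p-values of the other comparisons. It was the lowest of all 12 arrays for 19 of the 33 genes. It lay below both other shams for 26 of them, above both for 4 and between them for 3, while 29.9% of all genes lay below. Relative to the mean of shams 2 and 3, the median of the 33 genes was -1.08 and that of all genes 0.58. Ly6a, which encodes Sca-1, was at -2.68 on that measure and Lyl1 at -2.63. Tcf15 was not well above background on sham 1, so how far it lay below is not measured. At the other end Mecom was 1.42 above, Trpc6 1.02, Lmo2 0.43 and Msi2 0.35.

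A second measure ran beside it. Off-tissue probes, which report olfactory, vomeronasal, taste and keratin-associated genes that blood cells do not use, had a median of -1.61 on sham 1, against -3.30 and -3.45 on the other shams. After POL5551 the off-tissue median was -5.17, -4.50 and -4.11, after 2 days of G-CSF -2.40, -2.73 and -2.60, and after 5 days -3.97, -3.87 and -3.25. The 33 genes had their lowest median deviation on sham 1, where off-tissue signal was highest. On the POL5551 arrays, where it was lowest, their medians were 0.39, 0.56 and 0.29, and on sham 3 the median was 0.33. The part of this signal in the results below was not tested beyond the values given with it as a covariate. The downstream minus upstream level was taken for probes at least 1000 bases apart in 1878 transcripts, relative to its median over 12 arrays. The median of this excess over the transcripts was 0.01 on sham 1. It was 0.42 on mouse 2 of POL5551 and -0.16 to 0.07 on the other arrays. In bulk RNA of this kind, fewer cells of a type and less RNA per cell cannot be told apart.

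**Figure D1:**
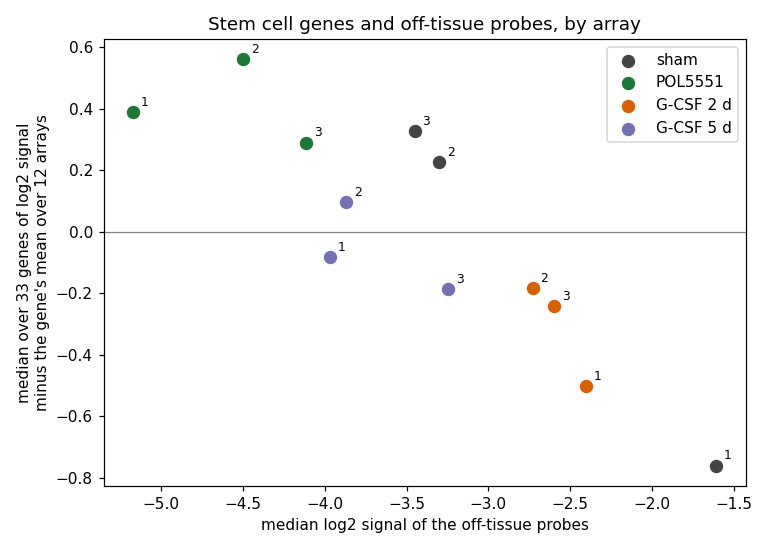
Each point is 1 array. The horizontal axis gives the median log2 signal of the off-tissue probes, and the vertical axis the median over the 33 genes of the log2 signal minus each gene's mean over 12 arrays; colours mark the 4 groups and numbers the mice. Sham 1 lies at -1.61 and -0.76, the POL5551 arrays lie between 0.29 and 0.56 on the vertical axis, and sham 3 lies among them at 0.33.

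None of the 33 genes passed an adjusted p of 0.05 (limma, Benjamini-Hochberg over all genes) in any of 5 comparisons between groups or in the F test over the 4 groups. The background of called genes was 2.25% for POL5551 against sham, 0.0331% for 2 days and 0.0662% for 5 days of G-CSF against sham, 0% for 5 against 2 days, 0.0602% for POL5551 against 5 days and 1.35% in the F test. Without adjustment 5, 4, 5, 1 and 6 of the 33 had a p under 0.05 in those 5 comparisons, and 7 in the F test, against 35%, 9.12%, 11.1%, 16.2%, 11.7% and 34% of all genes. The comparisons share groups and are not independent.

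The lowest adjusted p-values in the F test belonged to 5 of the 33 genes. They were Msi2 (adjusted p = 0.0681), Clec1a (adjusted p = 0.0691), Zfp521 (adjusted p = 0.0798), Fli1 (adjusted p = 0.0835) and Fgd5 (adjusted p = 0.0999). Sham 1 lay within 0.35 of the mean of the other shams for each of these 5. When sham 1 was left out, the F test called 6 of the 33, namely Msi2, Clec1a, Zfp521, Tcf15, Procr and Ctnnal1, with adjusted p from 0.0329 to 0.0497, and 7674 of all genes. With sham 1 and mouse 3 of the 5-day group both left out it called 9, with 9557 of all genes. Arrays weighted by their residual spread, where sham 1 had the lowest weight, gave 4: Msi2, Clec1a, Zfp521 and Fli1. Restricting the test to probes above background on all arrays gave 2, Msi2 and Clec1a. Over the settings tried, the F test called 23 to 9557 of all genes. The main F test called 447 of all genes, so leaving these arrays out raised the count over all genes as well. The counts of all genes with array weights and with this restriction are not given. None of these calls is read as particular to the 33.

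**Figure D2:**
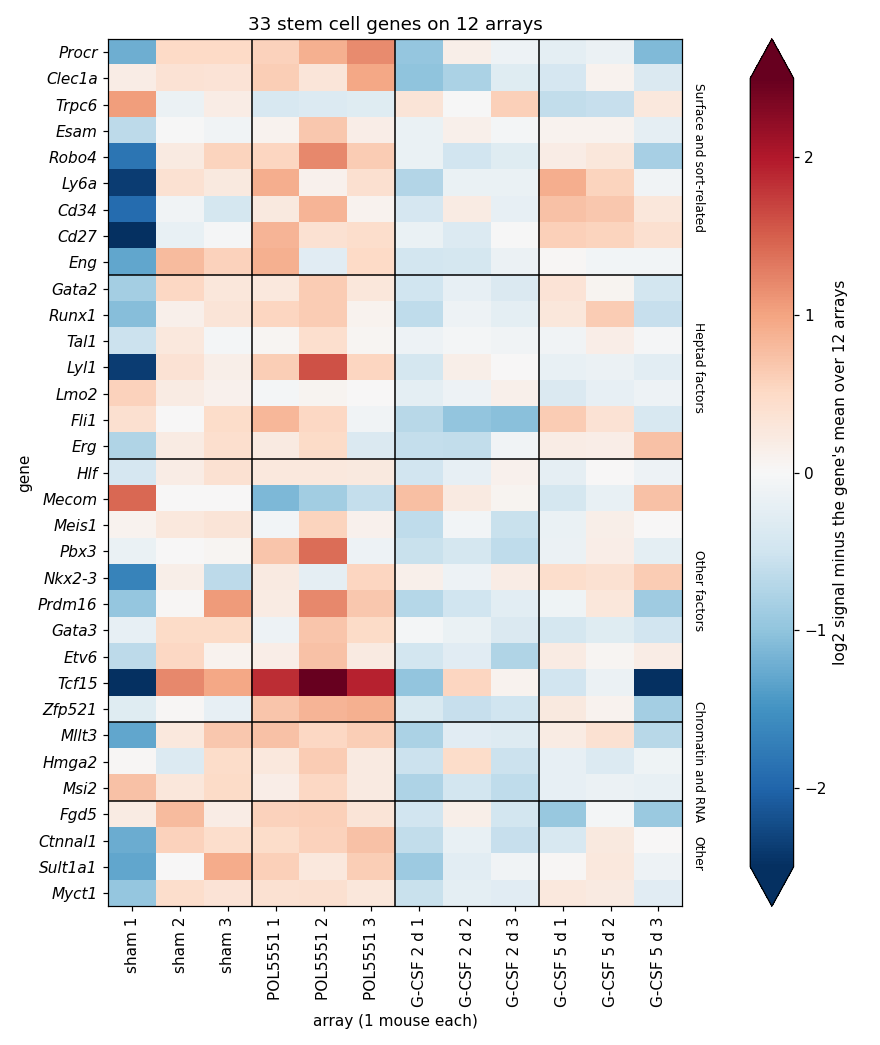
Rows are the 33 genes in order of role, columns the 12 arrays, and colour the log2 signal minus the gene's mean over 12 arrays. Sham 1 is the lowest array for 19 genes, and 30, 25 and 26 genes lie under their mean on the 3 arrays of the 2-day G-CSF group.

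The first question was how blocking CXCR4 for 2 weeks left the stem cell genes. After POL5551, 28 of the 33 lay above sham, with a median log2 difference of 0.42, while 35.9% of all genes lay above and their median was -0.52. The 3 POL5551 mice were all higher than the 3 shams for 7 genes (10.5% of all genes) and all lower for 3 (25.8%). Without sham 1 the median of the 33 was 0.15, with 23 above, and that of all genes -0.26. With the off-tissue signal as a covariate it turned to -0.28, with 10 above. Scaling also moves the zero: with median scaling the median of the 33 was 0.82 and that of all genes -0.12.

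Zfp521, a zinc finger protein of stem and progenitor cells, had the smallest p. It was at -0.91, -0.76 and -0.72 after POL5551 and at -1.92, -1.58 and -1.81 in sham. The groups did not overlap, and the difference was 0.97 (SE 0.323, limma adjusted p = 0.0874, 95% interval 0.27 to 1.68). Sham 1 was close to the other shams here, and without it the difference was 0.90 (adjusted p = 0.219). Within slide 1 it was 1.01 and within slide 2 0.93. It was 0.63 with the off-tissue covariate.

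Cd27 and Cd34 encode surface proteins that rise as stem cells give way to multipotent progenitors in mice. Cd27 (chr6:125183200-125183259, mm9) was at 2.24, 1.76 and 1.83 after POL5551 and at -1.10, 1.20 and 1.37 in sham. Every POL5551 mouse was above every sham, but sham 1 was more than 2 log2 units under the rest. The difference was 1.46 (SE 0.544, limma adjusted p = 0.105), 0.66 without sham 1 and -0.41 with the off-tissue covariate. Cd27 was also the single one of the 33 called in this comparison when another array, sham 3, was left out (difference 1.89, limma adjusted p = 0.0485). In that fit sham 1 weighs more, and 4673 of all genes were called.

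Cd34 (chr1:196787392-196787451) was at 1.34, 1.96 and 1.20 after POL5551 and at -0.82, 1.02 and 0.67 in sham. The groups did not overlap, and sham 1 was again the outlying value. The difference of 1.21 (SE 0.457, limma adjusted p = 0.107) became 0.66 without sham 1 and -0.12 with the off-tissue covariate. Within slides it was 2.16 on slide 1, which holds sham 1, and 1.12 on slide 2.

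In the other direction, Mecom, the gene of the EVI1 zinc finger factor needed for stem cell self-renewal, was lower on its chosen probe. Whether that probe reports EVI1 itself was not tested. Its chosen probe read -0.69, -0.44 and -0.16 after POL5551 and 1.86, 0.44 and 0.44 in sham. All POL5551 mice lay under all shams, with sham 1 the highest of the 12 arrays. The difference was -1.35 (SE 0.454, limma adjusted p = 0.0899), or -0.87 without sham 1, and -2.56 and -0.88 within slides 1 and 2. It turned to 0.17 with the off-tissue covariate and to 0.05 with the mean of all tested probes of the gene.

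Mecom has 5 probes, and they did not move together. The chosen probe (chr3:30445665-30445724, minus strand) and another that lies 1 base away (chr3:30445664-30445723) share 59 positions and differ at 3 of them. The same stretch of both is shown because their signals can be set side by side, with the differing bases in capitals.

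Mecom A_55_P1981639: caGgtgtgacggacgactttctattCcGag
Mecom A_55_P2822212: caAgtgtgacggacgactttctattTcCag

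Counted from the first shared base, the second probe differs from the first as G12A, C35T and G37C. The pair gave differences of -1.35 and -1.30 after POL5551. A further probe, far downstream in the gene, (chr3:30135491-30135550) gave -0.85. The probes farthest downstream gave the opposite sign: 2.32 for the one at chr3:29876185-29876244 and 1.45 for the one at chr3:29878979-29879038. On the first of these, sham 1 read -5.68 where the other shams read 0.68 and 0.21, and the POL5551 mice read 0.87, 0.40 and 0.89. No Mecom probe passed (limma adjusted p from 0.106 to 0.218), and the sign of the Mecom difference depends on the probe.

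Trpc6, a calcium-permeable channel enriched in stem cells, was the next lower gene. Its chosen probe read 6.07, 6.11 and 6.16 after POL5551 and 7.50, 6.32 and 6.65 in sham, a difference of -0.71 (SE 0.376, limma adjusted p = 0.184) without overlap, which turned to 0.28 with the off-tissue covariate. This probe is far brighter than the other probes of the gene and holds runs of the repeat CA, marked in capitals below, whereas the same bases 11 to 40 of the other probes hold none.

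Trpc6 A_55_P2503371: tctCACACACACActtacataCACACACAt
Trpc6 A_51_P411452: gagactcattaaaagatatgtattgcaggc
Trpc6 A_55_P1966644: tatcaactttttgggtgattaaattgcatt

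The motif CACACACA, sought on both strands, occurs in 0.998% of the 56605 probes and in 1 of the 63 probes of the 33 genes. The 249 probes with the motif as written had a median level of 2.72, against -1.90 for all probes. The bright probe lies at chr9:8628219-8628278 and the others at chr9:8679469-8679528 and chr9:8680682-8680741, all on the plus strand. After POL5551 the others gave differences of 0.11 and 0.62, so they were not lower.

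Lmo2, the bridging protein of the TAL1 and GATA complex, was the third lower gene (chr2:103821857-103821916). It read 4.10, 4.23 and 4.17 after POL5551 and 4.74, 4.36 and 4.26 in sham, without overlap, and the difference was -0.29 (SE 0.268, limma adjusted p = 0.41). It turned to 0.12 with median scaling, 0.08 with the off-tissue covariate and 0.76 with the mean of its probes. Its other probe gave 1.80, with sham 1 at -0.85 and the other shams at 3.67 and 3.97. On the POL5551 arrays that probe read 4.15, 3.89 and 4.16.

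By role, 8 of 9 surface genes lay above sham after POL5551 (median 0.96), 6 of 7 heptad factors (median 0.28), 8 of 10 other transcription factors (median 0.52), 2 of 3 chromatin and RNA regulators (median 0.32) and all 4 of the rest (median 0.52). The heptad is the set of Gata2, Runx1, Tal1, Lyl1, Lmo2, Fli1 and Erg, which occupy enhancers together in blood progenitors. Without sham 1 these medians were 0.36, 0.07, 0.11, 0.15 and 0.02, so the surface genes had the highest one. Robo4, a guidance receptor that helps anchor stem cells in the niche, had a difference of 1.14 and Procr, the protein C receptor EPCR, one of 0.96, each with sham 1 lowest of the shams. These were 0.40 and 0.39 without it, and -0.63 and -0.41 with the off-tissue covariate. Lyl1, a basic helix-loop-helix partner of TAL1, was at 3.93 ± 0.58 (SD, n = 3) against 2.40 ± 1.52, a difference of 1.54 (SE 0.619) that became 0.66 without sham 1 and -0.35 with the off-tissue covariate. Tcf15, a factor of quiescent long-term stem cells, had a fitted difference of 2.65 (SE 1.25, limma adjusted p = 0.151). It was well above background on 2 of the 3 shams, sham 1 not among them. The difference was 1.03 without sham 1 and turned to -1.76 with the off-tissue covariate.

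**Figure D3:**
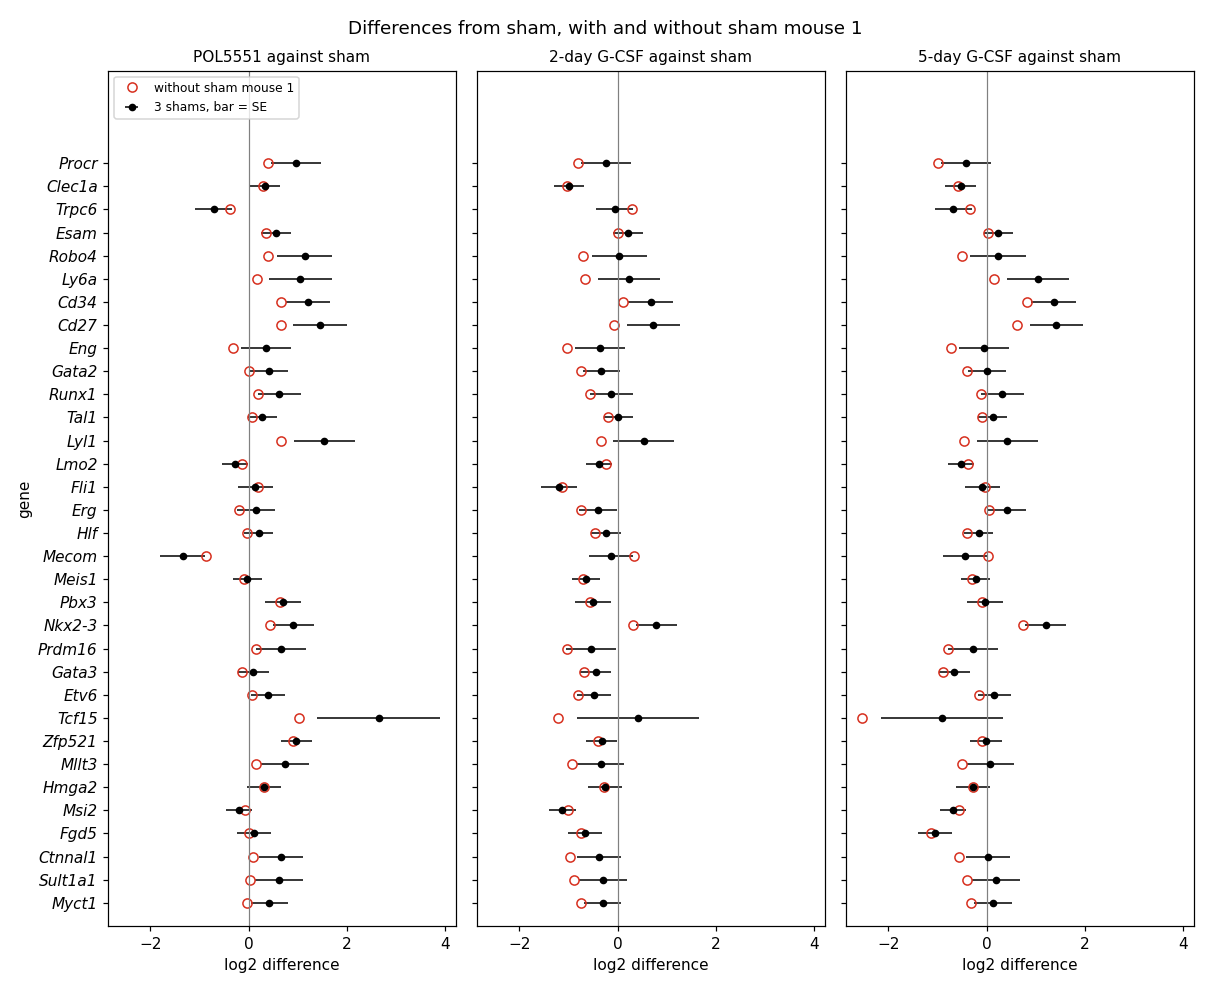
Log2 difference of each of the 33 genes from sham in 3 panels, for POL5551, 2 days and 5 days of G-CSF. Filled points with bars are the differences and limma standard errors with all 3 shams, and open circles the differences without sham mouse 1. Most open circles lie to the left of the filled points, while Zfp521, Msi2, Fli1, Clec1a, Fgd5, Hmga2, Meis1 and Pbx3 stay almost in place.

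The second question was what G-CSF did to the same genes after 2 days. Only 9 of the 33 lay above sham, and their median difference was -0.30, while 57% of all genes lay above with a median of 0.10. No gene had all 3 treated mice above all shams (6.59% of all genes), and 7 had all of them below (5.32%). Those 7 were Msi2, Fli1, Clec1a, Meis1, Fgd5, Pbx3 and Zfp521. Without sham 1 the median was -0.70, with 5 of 33 above. All 3 arrays of this group are on 1 slide that holds no other group, so the slide and 2 days of G-CSF cannot be told apart.

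Msi2, an RNA-binding protein that sustains self-renewal, had on its chosen probe the smallest p of the 33 in any comparison. Its chosen probe (chr11:88152912-88152971) read 2.15, 2.45 and 2.27 after 2 days, 3.64, 3.20 and 3.40 in sham, 3.08, 3.44 and 3.15 after POL5551, and 2.71, 2.76 and 2.73 after 5 days. The 2-day mice were below every other array, and the 5-day mice below every sham and POL5551 array. The difference from sham was -1.12 at 2 days (SE 0.265, limma adjusted p = 0.316, 95% interval -1.71 to -0.54) and -0.68 at 5 days (SE 0.265, adjusted p = 0.395). With array weights the 2-day difference was -1.02 and passed (adjusted p = 0.042), in a fit that called 838 of all genes. Without sham 1 it was -1.01 (adjusted p = 0.0786), and with the off-tissue covariate -1.15.

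Another probe of Msi2 begins at base 1358 of the transcript (chr11:88157956-88158015), where the chosen one begins at base 6402, and it differed most from it on sham 1. It read 0.45, 3.28 and 3.40 in sham and 2.30, 2.75 and 2.56 after 2 days. The fitted difference was 0.16 at 2 days and 0.67 at 5 days, opposite in sign to the chosen probe, although every 2-day mouse was below shams 2 and 3. With the mean of all tested Msi2 probes the 5-day difference was 0.43. When the probe with the highest mean linear signal stood for each gene, Msi2 changed sign at 2 days, at 5 days and after POL5551. The direction of Msi2 against sham thus depends on the probe. The chosen probe showed sham 1 at the level of its group, and this one showed it almost 3 log2 units lower.

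Fli1, an ETS factor of the heptad, was lower at 2 days alone (chr9:32229857-32229916). It read -0.49, -0.78 and -0.83 after 2 days, 0.60, 0.21 and 0.67 in sham, 1.03, 0.73 and 0.12 after POL5551, and 0.84, 0.57 and -0.19 after 5 days. The 2-day mice were below all 9 other mice. The difference was -1.19 from sham (SE 0.358, limma adjusted p = 0.419), and 5 days exceeded 2 days by 1.11 (SE 0.358, limma adjusted p = 0.25). The latter passed with array weights, at 1.27 (adjusted p = 0.0291), in a fit that called 5036 of all genes. Fli1 has a single probe.

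Clec1a, a C-type lectin receptor that marks long-term stem cells, read -2.53, -2.31 and -1.82 after 2 days (chr6:129377543-129377602). Shams were at -1.33, -1.17 and -1.19, POL5551 mice at -0.90, -1.22 and -0.55, and 5-day mice at -1.94, -1.45 and -1.89. Both G-CSF groups lay below all sham and POL5551 arrays. The difference from sham was -0.99 at 2 days (SE 0.31, limma adjusted p = 0.429) and -0.53 at 5 days (SE 0.31, adjusted p = 0.531). Sham 1 did not stand apart on this single-probe gene.

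Trpc6 gave larger differences at 2 days on the probes that were not chosen, which were read after the data had been seen. The probe at chr9:8679469-8679528 read -4.02, -3.001 and -3.71 after 2 days and -2.62, -1.08 and -1.43 in sham. The groups did not overlap, and the difference was -1.87 (limma adjusted p = 0.283, over all probes). All 3 of these 2-day readings lay below the off-tissue medians of the same arrays (-2.40, -2.73 and -2.60). The reading of sham 1 also lay below its off-tissue median of -1.61, so the size of the difference is not exact. The probe at chr9:8680682-8680741 gave -1.71, reading -2.51, -2.43 and -4.33 against -2.03, -0.57 and -1.54. Its readings of -2.51, -4.33 and, on sham 1, -2.03 also lay below the off-tissue medians of their arrays, so this size is not exact either. The repeat-bearing probe gave -0.05 (adjusted p = 0.984 over all probes). At 5 days the 3 probes gave -0.87, -1.22 and -0.67 in the same order.

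Few genes were higher at 2 days. Nkx2-3, a homeobox factor, read 1.22, 0.96 and 1.28 against -0.58, 1.24 and 0.43 in sham, a difference of 0.79 (SE 0.422, limma adjusted p = 0.608). Cd34 read 0.68, 1.31 and 0.89, a difference of 0.67 (SE 0.457, adjusted p = 0.721), and Cd27 read 1.23, 1.04 and 1.39, a difference of 0.73 (SE 0.544, adjusted p = 0.753). Groups overlapped for all 3 genes, and without sham 1 the differences were 0.32, 0.12 and -0.07.

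By role at 2 days, 5 of 9 surface genes lay above sham (median 0.04), 2 of 7 heptad factors (median -0.33), 2 of 10 other factors (median -0.39), none of the 3 chromatin and RNA regulators (median -0.35) and none of the remaining 4 (median -0.34). Meis1, a homeobox factor of stem cell maintenance, was at 2.65 ± 0.31 (SD, n = 3) against 3.30 ± 0.12 in sham, and its brightest other probe gave -0.12. Without sham 1, all 7 heptad factors lay below sham (median -0.56), and the surface genes had a median of -0.66 with 3 above.

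**Figure D4:**
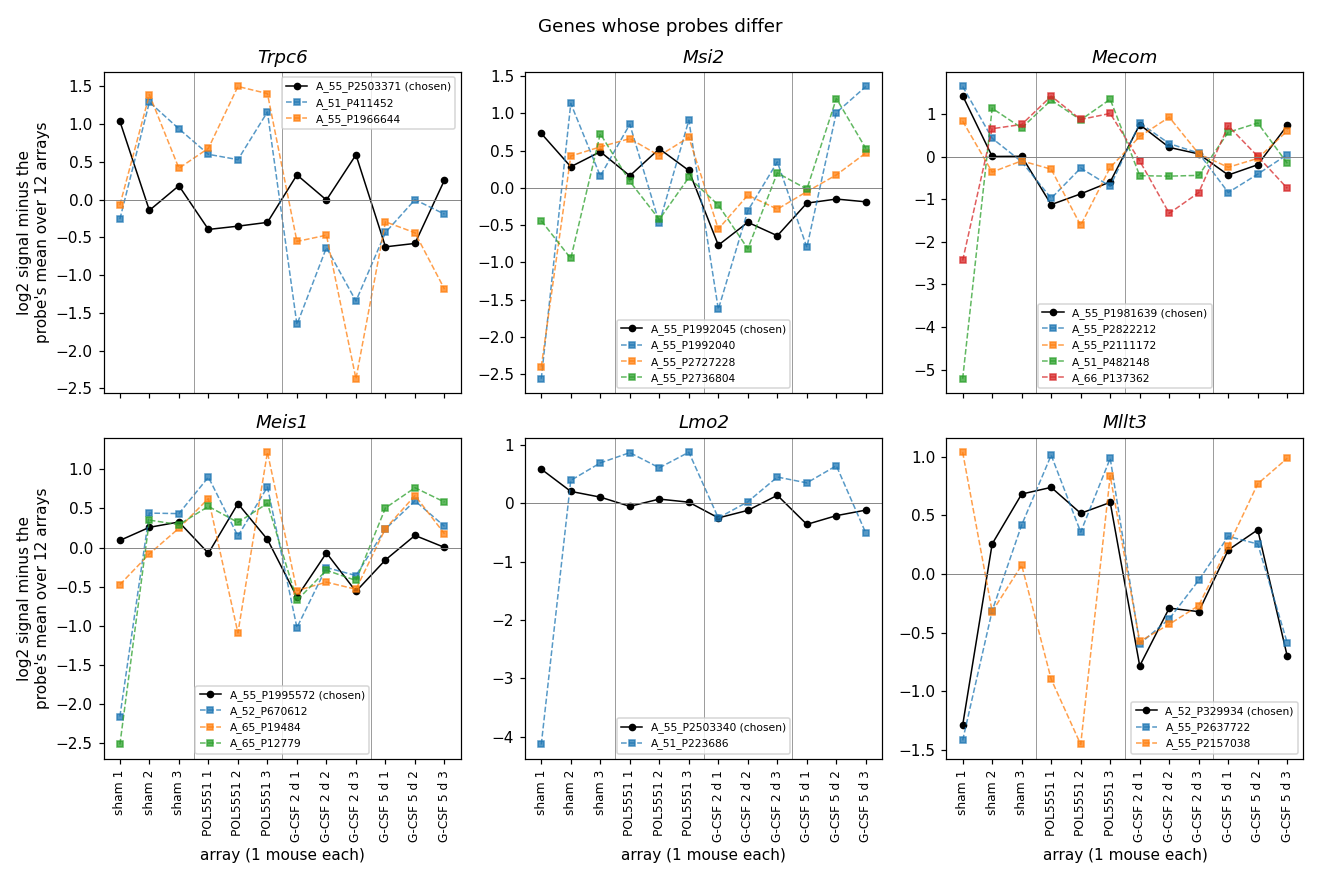
Log2 signal of each probe minus its own mean over 12 arrays, for 6 genes whose probes differ by more than 2 log2 units on sham 1 relative to shams 2 and 3. Black points are the chosen probe and coloured squares the others that are well above background on at least 11 arrays. Sham 1 is high on the chosen probes of Trpc6, Msi2, Mecom and Lmo2 and low on other probes of Msi2, Mecom, Meis1 and Lmo2.

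These 6 genes are among 13 with several such probes: Lmo2, Mecom, Meis1, Mllt3, Msi2 and Trpc6. Of 14 genes with several tested probes, 8 had differences of both signs after POL5551, 9 after 2 days and 9 after 5 days of G-CSF. Where a gene has several probes, its direction against sham can thus depend on the probe.

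After 5 days of G-CSF the 33 genes were centred on sham. The median difference was -0.01, with 16 above, against -0.13 and 42.5% for all genes. All 3 mice were above all shams for 3 genes (4.41% of all genes) and below for 5 (8.15%). Without sham 1 the median was -0.34, and with slide as a fixed block it was 0.42.

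Fgd5, a guanine exchange factor used to label stem cells in reporter mice, was lower (chr6:92025710-92025769). It read -2.61, -1.70 and -2.58 after 5 days, -1.44, -0.86 and -1.46 in sham, -1.08, -1.05 and -1.32 after POL5551, and -2.13, -1.50 and -2.11 after 2 days. All 6 mice given G-CSF were below all sham and POL5551 mice, narrowly so for the 2-day mouse at -1.50 and the sham at -1.46. The 5-day difference was -1.04 (SE 0.347, limma adjusted p = 0.347, 95% interval -1.81 to -0.28), and -1.14 without sham 1. It was -0.16 with slide as a fixed block, where the link to sham runs through single arrays.

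Gata3, a zinc finger factor of long-term stem cells and T cells, read 0.59, 0.72 and 0.55 after 5 days and 0.81, 1.51 and 1.51 in sham (chr2:9779495-9779554). The groups did not overlap, and the difference was -0.66 (SE 0.317, limma adjusted p = 0.465). Sham 1 was the nearest sham to the treated mice, and without it the difference was -0.89.

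Higher at 5 days were Cd34, Cd27 and Nkx2-3. Cd34 read 1.83, 1.77 and 1.38, a difference of 1.37 (SE 0.457, limma adjusted p = 0.347). Cd27 read 1.99, 1.94 and 1.80, a difference of 1.42 (SE 0.544, adjusted p = 0.39). Nkx2-3 (chr19:43689699-43689757) read 1.52, 1.46 and 1.71, a difference of 1.20 (SE 0.422, adjusted p = 0.368). For each of these 3 genes every 5-day mouse was above every sham, and without sham 1 the differences were 0.82, 0.63 and 0.73. Every 5-day mouse was also above every 2-day mouse for all 3.

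By role at 5 days, 5 of 9 surface genes lay above sham (median 0.23), 5 of 7 heptad factors (median 0.12), 2 of 10 other factors (median -0.19), 1 of 3 chromatin and RNA regulators (median -0.27) and 3 of the remaining 4 (median 0.08). Ly6a was at 1.00 ± 0.50 (SD, n = 3) against -0.05 ± 1.55 in sham. That difference of 1.05 became 0.15 without sham 1.

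The differences of 5 from 2 days of G-CSF do not use the sham levels. The 2-day arrays are all on slide 3 and the 5-day arrays on slides 4, 5 and 6, so slide and duration cannot be told apart. The standard errors and p-values of this comparison rest on a spread that includes the shams. Without sham 1 the comparison called 14 of all genes, and 0 with it. At 5 days 24 of the 33 were higher, with a median difference of 0.34, against 39% and -0.27 for all genes. The groups did not overlap for 10 genes, all higher at 5 days (11.7% of all genes; 23.2% were lower). They were Ly6a, Cd34, Cd27, Eng, Fli1, Erg, Pbx3, Nkx2-3, Etv6 and Msi2. Erg, an ETS factor of the heptad, was at 0.16 ± 0.32 (SD, n = 3) against -0.64 ± 0.30, a difference of 0.80 (SE 0.387, limma adjusted p = 0.328). With the off-tissue covariate the median turned to -0.28, and Cd34, Cd27 and Nkx2-3 turned to -0.13, -0.46 and -0.09. Each 2-day array also had a higher off-tissue median than each 5-day array.

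The comparison of POL5551 with 5 days of G-CSF asked whether both mobilising treatments left the genes alike. Its differences do not use the sham levels either, while its standard errors and p-values again rest on a spread that includes the shams. Without sham 1 it called 91 of all genes, and 20 with it. The lowest limma adjusted p of the 33 was then 0.111, for Tcf15. After POL5551 28 of 33 were higher, with a median of 0.40, against 37% and -0.28 for all genes. All POL5551 mice were above all 5-day mice for 16 genes (10.3% of all genes), and below for Mecom alone (15.3%). Within slide 5, the single slide with both groups, 23 of 33 were higher, with a median of 0.23. With the off-tissue covariate the median was 0.08.

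Fgd5 had the smallest p here, 1.14 higher after POL5551 (SE 0.347, limma adjusted p = 0.352). Zfp521 was 0.99 higher (SE 0.323, adjusted p = 0.377), Clec1a 0.87 (SE 0.31, adjusted p = 0.401) and Gata3 0.75 (SE 0.317, adjusted p = 0.421). Procr was at 2.02 ± 0.30 (SD, n = 3) against 0.64 ± 0.53, 1.39 higher (SE 0.507, adjusted p = 0.403). Tcf15 was well above background on all 3 POL5551 arrays and on 2 of the 3 5-day arrays. Its fitted difference of 3.56 (SE 1.25, adjusted p = 0.398) includes a value at background on 5-day mouse 3 and is no exact size. The groups did not overlap for any of these 6 genes. The 3 chromatin and RNA regulators and the 4 genes of other function were all higher without overlap: Mllt3, Hmga2, Msi2, Fgd5, Ctnnal1, Sult1a1 and Myct1. Cd34 and Cd27 differed by -0.16 and 0.03, with 95% intervals of -1.16 to 0.84 and -1.16 to 1.23.

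A further 31 genes of stem cell biology outside these 33 are given by counts. None was called in any of the 5 comparisons. After POL5551 25 of 31 were above sham (median 0.72), after 2 days 15 (median -0.05) and after 5 days 19 (median 0.26). At 5 against 2 days 26 were higher (median 0.32), and after POL5551 against 5 days 24 (median 0.47). Among markers of other blood cells and stroma, the erythroid factor Gata1 was 1.69 higher after POL5551 (limma adjusted p = 0.0436). Of 7 tested erythroid genes 4 lay above sham (median 0.48). The stromal gene Pdgfrb was 3.62 higher (limma adjusted p = 0.0335, well above background on 11 arrays), and 6 of 7 stromal genes lay above sham (median 2.73). POL5551 against sham called 749 of all genes in this fit and 71 without sham 1. With the off-tissue covariate or with slide as a fixed block it called 0, so neither gene passed there. The differences of Gata1 and Pdgfrb in those fits are not given. The summed linear signal of 7 stromal markers was 4.01 to 6.52 in sham, 12.2 to 39.8 after POL5551, 5.45 to 35.0 after 2 days and 8.57 to 28.1 after 5 days, in multiples of the 75th percentile, and its part in the results was not tested.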

How the data were processed

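The values are fluorescence intensity on a linear scale in the scanner files that the authors deposited, made by Agilent Feature Extraction 11.5.1.1 per the submitters' processing notes, in the red channel, with background subtracted and no normalization between arrays. From these, log2 signal minus the 75th percentile of each array was computed, with each probe taken once and outlier spots left out. Probes detected above background on fewer than 3 of the 12 arrays were not tested, and a gene was represented by its probe with the highest mean, giving 33233 genes. Group means were fitted with limma 3.58.1 in R 4.3.3 over all 12 arrays (8 residual and 3.23 prior degrees of freedom). Tests were two-sided at a threshold of 0.05, with Benjamini-Hochberg adjustment over all genes. With 3 mice a group, the smallest p an exact permutation test allows is 0.1.

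The genes, their roles and the lists were chosen with earlier results of these data known. Values on each array are given for the 3 genes with the smallest p in each direction of each comparison with sham, and the others are given by means, counts and medians. Single arrays are separate mice per the labels. Slides were 1, 2 and 2 for sham, 1, 2 and 5 for POL5551, 3 for all 2-day mice and 4, 5 and 6 for the 5-day mice. Mouse numbers were not used as pairs in the main fit. The 18 same-number pairs had correlations from -0.31 to 0.25, with 7 above 0.1, and the other pairs from -0.27 to 0.43. Some mouse numbers differ between the authors' table and the scanner files, so these values cannot settle whether numbers pair the samples. The code was tested on simulated data. Probe sequences and coordinates (mm9) are those of the array design in the scanner files.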

Additional observations from a re-analysis of the deposited data

How the results depend on the processing

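In all, 31 other settings were tried, of which 3 (the percentile over all spots, the probe with the highest linear signal, and sham 1 and 5-day mouse 3 left out together) and the reading of single probes were chosen after the data had been seen. Of the 33 genes, 1 was called after 2 days of G-CSF and 1 in 5 against 2 days with array weights. Those fits called 838 and 5036 of all genes. The F test called 2 when every probe had to exceed background on all arrays, 4 with array weights and 9 with both arrays left out. Leaving out each array in turn gave 0 to 1 called for POL5551 against sham and 0 to 6 in the F test. The fit with 9 called 9557 of all genes, and the fit with 1 for POL5551 against sham called 4673. None of these calls is read as particular to the 33. The median difference of the genes after POL5551 moved to 0.82 with median scaling and -0.28 with the off-tissue covariate. For 2 days of G-CSF it ran from -0.70 (without sham 1, also with 5-day mouse 3 left out) to -0.0896 (without sham 3). For 5 days it was 0.42 with slide as a fixed block and -0.37 with the covariate, and for 5 against 2 days -0.28 with the covariate. The cause of these shifts was not tested. Counts over all genes ran from 0 (slide as a fixed block) to 4673 (without sham 3) for POL5551 against sham, where 749 were called, from 0 to 838 for 2 days (11), 0 to 55 for 5 days (22), 0 to 5036 for 5 against 2 days (0), 0 to 91 for POL5551 against 5 days (20) and 23 to 9557 in the F test (447). Of the calls after POL5551, 58 were higher and 691 lower, and with median scaling 50 and 165. With quantile normalization they were 18 and 72, and with the authors' deposited values 16 and 46. With mouse number as a replicate block 181 genes and none of the 33 were called in POL5551 against sham, and none of the 33 in the other comparisons. The slide block gives no value for 2 days of G-CSF. In the authors' table the mouse numbers differ from those of the scanner files within POL5551 and between 5-day mice 2 and 3, which leaves groups as they are. With 3 mice a group, the 95% interval of every single gene was wider than 1 log2 unit.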
